A study of Mus musculus with 4 samples.

Results

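The cytosolic ribosome is built from ribosomal RNAs and ribosomal proteins, and the genes of these proteins, named Rpl for the large and Rps for the small subunit, are among the most abundantly transcribed in any cell. Members were all features whose symbol follows the Rpl or Rps pattern of these proteins, with Rpsa, Rplp0, Rplp1 and Rplp2 added and with pseudogene symbols and the Rps6k kinases left out. This gave 84 genes among 28006 features, 52 of the large and 32 of the small subunit. Of these, 83 had a unique molecular identifier (UMI, the tag that marks each captured RNA molecule) in all 4 libraries. Rpl10l had none in any cell, and no feature was named Rps4l. The members lie on 19 chromosomes, 4 of them on chromosome X (Rpl10, Rpl36a, Rpl39 and Rps4x). The rule takes symbols as they are and so includes Rpl6l, which the annotation types as a processed pseudogene (GRCm38, chr10:111125851-111126721, plus strand).

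The libraries are single-cell 3′ RNA-seq of tdTomato+ cells sorted from mouse femurs of the genotype Cxcl12-iCreER; R26R(tdTomato/+). In these mice a tamoxifen-inducible Cre carried on a Cxcl12 transgene switches on the red reporter in Cxcl12-expressing marrow stromal cells and their progeny. The paper reports that many sequenced cells lay in clusters where tdTomato RNA was not found, among them myeloid, lymphoid and erythroid cells. The hematopoietic cells described below are therefore not taken as progeny of the stroma. All mice received tamoxifen 7 days before marrow ablation and were analysed 7 days after it. The paper describes ABL as the femur whose marrow was mechanically removed and CONT as the contralateral, unoperated femur. By that description the control comes from injured animals. Sex-linked RNA, given below, goes against shared mice in replicate 2. Each condition has 1 library in each of 2 biological replicates; replicate 1 was pooled from several mice. Replicate 1 was made with Chromium version 2 and replicate 2 with version 3 chemistry, so replicate and chemistry cannot be told apart. The labels give neither the age nor the sex of the mice. P-values between femurs measure the spread between 2 replicates. Those between cell types measure how far a difference within libraries varies from library to library.

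Ribosomal proteins are needed in fixed proportions, and their messenger RNAs share a short run of pyrimidines at the 5′ end, the terminal oligopyrimidine or TOP motif, through which mTOR signalling adjusts their translation together. Cells that grow or divide, such as lymphoid precursors and early erythroblasts, carry many ribosomes, while erythroblasts and neutrophils lose them as they mature. Stromal reticular cells of the marrow, which express Cxcl12, Lepr and Adipoq, are largely quiescent until injury.

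The RefSeq promoters of the members (GRCm38.p6) were searched for the motif that gives the TOP class its name. Of the 84 members, 63 were matched, with 75 promoters between them. The motif searched was a C at the annotated start followed by at least 4 bases that are C or T, read on the strand of the gene. It stood exactly at the start in 13 of 75 member promoters (17.3%), against 823 of 32851 of all promoters (2.51%). It stood at the start of 5 of 17 promoters of 20 other TOP and translation factor genes (29.4%) and of 0 of 74 promoters of mitochondrial ribosomal protein genes. Within 10 bases of the start it was found in 54.7% of member and 30.7% of all promoters. The windows of 25 bases below, from 10 bases before the start, are examples chosen to show where the motif lies. The first 6, of the 13 with the motif there, have the motif at the start, in capitals.
Rpl15, chr14:18270972-18270996, minus strand: agaaagccttCTTCCTTTCCTCTgg
Rpl28, chr7:4792955-4792979, plus strand: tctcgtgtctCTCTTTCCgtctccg
Rpl38, chr11:114668570-114668594, plus strand: aagcctcgttCTTTCCCCgttctct
Rplp2, chr7:141447641-141447665, plus strand: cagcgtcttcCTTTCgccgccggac
Rps6, chr4:86857353-86857377, minus strand: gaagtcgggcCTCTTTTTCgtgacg
Rps27, chr3:90213634-90213658, minus strand: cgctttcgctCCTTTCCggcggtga
Rpl39, chrX:37085208-37085232, minus strand: gctccgCCTCTagcgacttcttcta
Rpl39l, chr16:10170218-10170242, plus strand: aggcCTTTCCggatttccggtggtc
Rpl3l, chr17:24727816-24727840, plus strand: ttctagctctgtcatttgaCCTCTg
The last 3, without the motif at the start, belong to the paralogs described below. Their capitals mark the same motif beginning away from the annotated start. It lies before the start in Rpl39l, begins before it and ends on the start base in Rpl39, and lies after it in Rpl3l. A match describes these letters and says nothing of how the RNAs were translated, which was not measured.

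The libraries held between 22889380 and 44784072 UMIs, and 1459 to 3433 barcodes per library were taken as cells, with a median of 5714 to 12896 UMIs. Cells shared 5 barcodes between the libraries of replicate 1 and 1 between those of replicate 2. Clusters were built without the members and named from marker genes. Reticular-like cells carried all 11 reticular markers, at a sum of 27690 to 34590 CPM, a gene's UMIs scaled to a common total for each sum of cells in the 4 libraries. The ABL library of replicate 2 stood apart: its mesenchymal cells were mostly periosteal-like (1046 of 1610), with reticular markers at 3778 CPM against 19260 to 33730 CPM in the other libraries and periosteal markers at 21000 CPM against 1368 to 2654 CPM. Its mesenchymal cells also had Xist at 0 CPM and its hematopoietic cells at 0.226 CPM. Its CONT partner had 811 and 423 CPM in the same order. These values go against the described origin of both libraries as opposite femurs of the same mice. Comparisons between femurs are therefore given for each replicate.

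In reticular-like cells the members together made up between 6.82% and 14.8% of all UMIs. On average over the 4 libraries 80 of the 84 members exceeded 100 CPM and 64 exceeded 1000 CPM, with a median of 1499 CPM. Because the assay counts molecules at their 3′ end, levels were not divided by length. Rpl41, whose product is the smallest ribosomal protein, was highest at 3959 CPM, followed by Rps29 (3515 CPM), Rps27 (2869 CPM), Rpl13 (2717 CPM) and Rpl37a (2648 CPM), and these 5 held 13.1% of the members' UMIs. The 4 members under 100 CPM were Rpl39l (61.0 CPM), Rpl7l1 (36.6 CPM), Rpl3l (0.217 CPM) and Rpl10l (0 CPM), all of them paralogs of abundant members. Levels of single members carry a limit of the assay. Of 83 members with a transcript, 72 share at least 1 stretch of 50 bases within their last 300 bases with a transcript of another gene, and 40 share more than 50% of them. The share was 100% for Rpl36a, 96.0% for Rpl35, 90.4% for Rpl10, 61.5% for Rpl41, 58.5% for Rps27 and 0% for Rpl39l. Reads from such stretches can be split or dropped.

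The share of UMIs that came from the members differed widely between cell types within each library. T/NK-like cells, found in the ABL library of replicate 2 with 44 cells, had the highest share, 41.1% (95% exact binomial interval 40.9 to 41.3, which covers counting error only, as do all intervals here). B-lineage-like cells followed with 23.4% (CONT) and 26.9% (ABL) in replicate 1, and CONT of replicate 2 gave 19.999%. Early erythroid-like cells had 24.6% (CONT, replicate 1) and 23.3% (ABL, replicate 2), and plasmacytoid/dendritic-like cells of CONT replicate 1 had 23.4%. Monocyte/macrophage-like cells had 15.02% (CONT) and 18.04% (ABL) in replicate 1, and ABL of replicate 2 gave 20.2%. Of the 296 monocyte/macrophage-like cells of the last library, 83 belong to a cluster led by Acp5, Atp6v0d2, Mt3 and Mmp9, genes known from osteoclasts, whose marker score was low (0.358), and a cluster of 20 cells with like genes in ABL of replicate 1 stayed unnamed. Without the 83 cells the share was 15.7%. Lymphoid and early erythroid cells thus had larger shares than reticular-like cells of the same library wherever both were found.

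Late erythroid-like cells had 1.93% in CONT and 1.13% in ABL of replicate 1. Mature neutrophil-like cells had 2.55% and 2.59%, and immature neutrophil-like cells 3.57% and 3.70%, in the same libraries, with 2.96% in immature neutrophil-like cells of ABL replicate 2. Every share of these maturing cells lay under the 8.86% to 11.4% of UMIs that members gave in droplets with at most 300 UMIs, taken as empty, of the same libraries. Reticular-like cells had 14.1% (CONT) and 14.8% (ABL) in replicate 1 and 6.82% and 12.2% in replicate 2. Osteoblast-like cells had 15.9%, 15.2% and 13.8% (CONT and ABL of replicate 1, ABL of replicate 2), pre-osteoblast-like cells 13.1% and 18.3% (CONT and ABL of replicate 1), and chondrocyte-like cells 22.5% and 16.01% in the ABL libraries of replicates 1 and 2. The osteoblast-like shares rest on 10, 62 and 48 cells and the chondrocyte-like shares on 15 and 80 cells, in the same order. Periosteal-like and cycling mesenchymal cells of ABL replicate 2 had 14.1% and 16.1%. The periosteal-like class is named from its marker score and is mixed. Of its 1046 cells, 483 belong to a cluster led by Prg4, Clic5 and Thbs4 with the tendon gene Scx, and the other 563, led by Mmp3, Dpt and Clec3b, had a share of 14.6%.

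**Figure D1:**
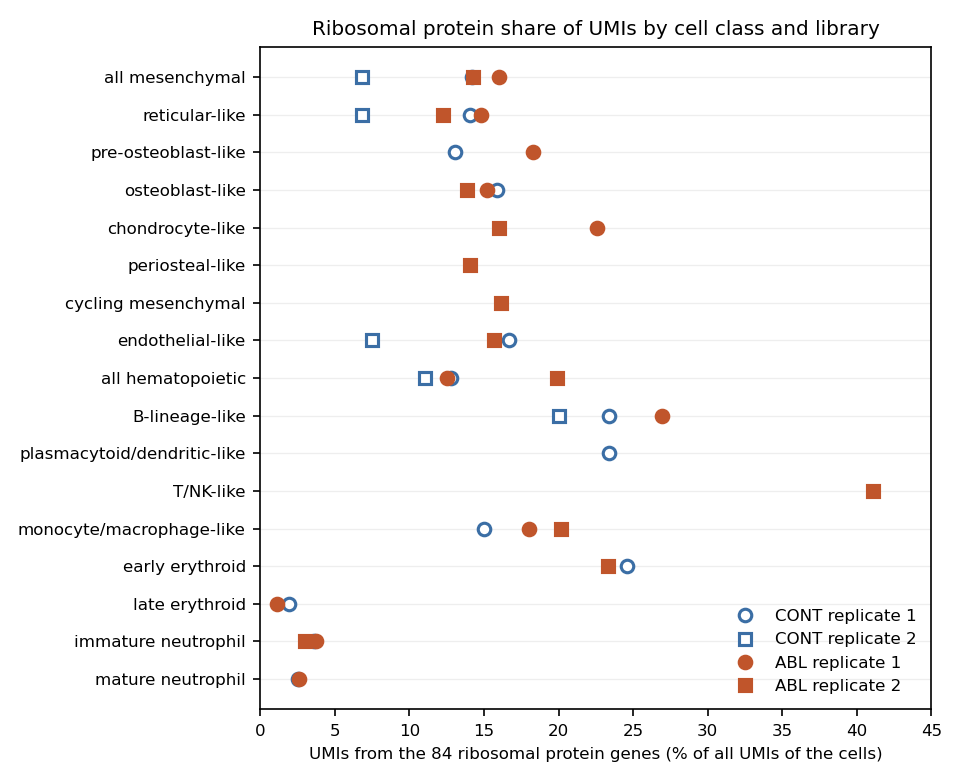
Share of all UMIs that came from the 84 ribosomal protein genes (x axis, %) in each cell class (rows), with 1 point per library: CONT open, ABL filled, replicate 1 circles, replicate 2 squares. T/NK-like cells sit at 41.1%, late erythroid and mature neutrophil cells under 3%, and the CONT library of replicate 2 lies at 6.82% in reticular-like cells, to the left of the other 3 libraries.

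The balance between subunits moved less than the total. UMIs of large-subunit members divided by those of small-subunit members gave 1.34 in reticular-like cells of both libraries of replicate 1. In reticular-like cells of replicate 2 the ratio was 1.26 (CONT) and 1.27 (ABL). The ratio was lowest in mature neutrophil-like cells, 0.973 (CONT, replicate 1) and 1.01 (ABL, replicate 1), and highest in late erythroid-like cells of ABL replicate 1, 1.56. T/NK-like cells of ABL replicate 2 had 1.12 and osteoblast-like cells of replicate 1 had 1.45 (CONT) and 1.46 (ABL).

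Maturation within a lineage could be followed in single libraries, as a description without a test. In CONT replicate 1 all 80 members with enough UMIs were lower in late than in early erythroid-like cells, with a median log2 ratio of −3.73. The fall ranged from −4.57 for Rps2, a small-subunit protein (4989 CPM in early and 209 CPM in late cells), to −2.90 for Rps29 (5959 and 798 CPM). Rplp0, the scaffold of the stalk that recruits elongation factors, went from 5772 to 359 CPM, and Rpl41 from 10417 to 1220 CPM. Because CPM are shares of a cell's UMIs, a fall of the members and a rise of haemoglobin RNA cannot be told apart here. RNA free in the droplets (free RNA) was estimated at 24.0% of UMIs in late and 5.17% in early erythroid-like cells of CONT replicate 1. Members gave 8.86% of UMIs in the empty droplets of that library. Late levels of single members therefore lie near what free RNA could give, and its part in these ratios was not tested.

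Between immature and mature neutrophil-like cells the members changed less and less evenly. The median log2 ratio of mature over immature cells was −0.62 over 76 members in CONT and −0.69 over 79 members in ABL of replicate 1. Rps28 had the lowest ratio in CONT, −1.38 (586 and 225 CPM), with −1.21 in ABL. Rps9 (1497 and 1721 CPM in CONT, 1472 and 1734 CPM in ABL), Rpl37 (844 and 974 CPM, 854 and 962 CPM) and Rps27 (1401 and 1450 CPM, 1255 and 1292 CPM) lay above 0 in both libraries. Rps27a, made as a fusion with ubiquitin, stood at 1376 and 1375 CPM in CONT and at 1316 and 1300 CPM in ABL. These genes were picked out after their values were seen. Free RNA was estimated at 5.68% of UMIs in immature and 9.015% in mature neutrophil-like cells of CONT, and at 9.77% and 10.9% in ABL. Members gave 8.86% (CONT) and 10.2% (ABL) of UMIs in the empty droplets of these libraries. The part of free RNA in these ratios was not tested.

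Each class was then set against reticular-like cells of the same libraries in 1 fit over counts summed per library and class (edgeR quasi-likelihood test, library as a block, Benjamini-Hochberg adjustment over 12194 genes, threshold 0.05). The background is the share of all genes tested that passed in the same direction. In erythroid-like cells 78 of 83 members tested passed as higher (background 27.5%) and 1 as lower (background 36.9%), with a median log2 difference of 1.05 over the members and −0.24 over all genes. Rplp0 (1.81, SE 0.31) and Rps2 (1.79, SE 0.30) had the highest differences, and Rps27l, a small-subunit paralog known as a p53 target, stood at 1.52 (SE 0.28). Among the members that did not pass, Rps27 (0.21, adjusted p = 0.438) and Rpl22l1 (0.65, adjusted p = 0.066) missed the threshold in this edgeR test. Library totals give another picture of the same counts. The members' share in all erythroid-like cells was 10.7% and 9.28% in CONT and ABL of replicate 1, below the reticular-like cells of the same libraries, and 11.2% and 23.3% in replicate 2, above them. Without TMM scaling, which sets the typical gene to equal levels, the members' median was 0.21 and that of all genes −1.12, and 2 members were higher and 1 lower. Over all genes 1423 were then higher and 6582 lower. Relative to all genes the members' median stood 1.29 higher with TMM and 1.32 higher without it. The class also mixed stages: 121 early and 177 late cells among 466 in CONT replicate 1, 78 late among 147 in ABL replicate 1, and 46 early cells in ABL replicate 2.

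In B-lineage-like cells 69 members passed as higher (background 22.9%) and 1 as lower (background 29.3%), with a median of 0.94 against −0.12 over all genes. The 69 include Rpl3l, whose reticular counts were near-empty. Among them were also Rpl4 (1.40, SE 0.29), Rps7 (1.37, SE 0.31) and Rps26 (1.32, SE 0.30), and among those that did not pass were Rpl22l1 (0.20, adjusted p = 0.642), Rplp1 (0.50, adjusted p = 0.138) and Rpl9 (0.55, adjusted p = 0.077) in the same edgeR test. The B-lineage count did not depend on TMM (75 higher without it) and fell to 39 without CONT replicate 1, 42 without ABL replicate 1 and 42 after free RNA was subtracted. Over all genes 3220 were higher without TMM and 2405 after free RNA was subtracted. Counts over all genes are not given for the omission of single libraries, so those member counts have no background. Of the 96 B-lineage-like cells of ABL replicate 1, 65 belong to a cluster led by the T and NK cell genes Ccl5 and Gzma beside the B-lineage genes Vpreb1 and Cd79a. Without it, an omission chosen after the data were seen, 65 members were higher and the members' share in the other 31 cells was 26.2%. The count over all genes is not given for this omission. Most ribosomal protein genes were thus higher in erythroid-like and B-lineage-like cells relative to the typical gene, and in B-lineage-like cells also relative to library totals.

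By edgeR the other classes differed from reticular-like cells in few members. DESeq2 on the same sums called more of them higher: 49 in chondrocyte-like, 24 in osteoblast-like, 19 in monocyte/macrophage-like and 13 in neutrophil-lineage cells. Of the 12194 genes in the fit DESeq2 called 1173, 977, 2565 and 3628 higher in the same order. The share of members called was near that of all genes in monocyte/macrophage-like and below it in neutrophil-lineage cells. Chondrocyte-like cells had 4 higher (background 7.0%) and 1 lower (background 9.41%): Rplp0 (1.39, SE 0.37), Rplp1 (1.01, SE 0.32), Rpl41 (1.01, SE 0.33) and Rps25 (0.92, SE 0.29). No CONT sum of chondrocyte-like cells entered the fit, as each CONT library held fewer than 10 of them. Osteoblast-like cells had 3 higher (background 5.72%) and 0 lower (background 10.9%): Rpl38 (0.97, SE 0.29), Rpl41 (0.96, SE 0.29) and Rpl27a (0.91, SE 0.28). Monocyte/macrophage-like cells had 6 higher (background 19.1%) and 1 lower (background 22.6%), with Rps29 (1.19, SE 0.29) and Rps25 (0.84, SE 0.25) among the higher, which also include Rpl3l. Neutrophil-lineage cells had 5 higher (background 25.6%) and 1 lower (background 32.6%), with Rps27a (0.98, SE 0.23), Rps9 (0.89, SE 0.21), Rpl7l1 (0.89, SE 0.23), Rps25 (0.67, SE 0.23) and Rpl3l as the higher. The members' share in the whole neutrophil-lineage class was 6.94% (CONT) and 9.33% (ABL) in replicate 1 and 2.55% and 15.6% in replicate 2. This class also mixed stages. It held 365 immature and 386 mature among 992 cells in CONT replicate 1, and 123 and 130 among 325 in ABL replicate 1. In ABL replicate 2 it held 107 immature among 228 cells. Endothelial-like cells had 0 higher (background 11.2%) and 1 lower (background 14.8%), and DESeq2 called 1 higher and 1 lower (1658 and 1339 over all genes). Pre-osteoblast-like cells, present in replicate 1, had 0 higher (background 0.435%) and 0 lower (background 0.492%) by edgeR. None of the members had an unadjusted p under 0.05 (1084 over all genes). DESeq2 called no member (55 higher and 55 lower over all genes). In each class but osteoblast-like and pre-osteoblast-like cells the lower member was Rpl39l.

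These small counts rested on scaling and on single libraries. Without TMM the numbers higher were 0 in chondrocyte-like, 0 in osteoblast-like, 2 in monocyte/macrophage-like and 1 in neutrophil-lineage cells, and in neutrophil-lineage cells 24 members were then lower. Over all genes 588, 465, 1980 and 1785 were then higher in the same order. In neutrophil-lineage cells 6304 of 12194 genes were lower, a larger share than that of the members. Without CONT replicate 2 the members higher numbered 41, 17, 17 and 22 in the same order, and without CONT replicate 1 they were 1, 0, 2 and 3. Without ABL replicate 1 chondrocyte-like cells had 0, osteoblast-like cells 0 and monocyte/macrophage-like cells 2, and without ABL replicate 2 these classes had 1, 0 and 2. Counts over all genes are not given for the omission of single libraries, so these member counts cannot be set against a background. The members' medians relative to all genes held more steadily, at 0.85 and 0.94 in chondrocyte-like, 0.59 and 0.71 in osteoblast-like, 0.36 and 0.40 in monocyte/macrophage-like and 0.20 and 0.23 in neutrophil-lineage cells, with and without TMM.

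**Figure D2:**
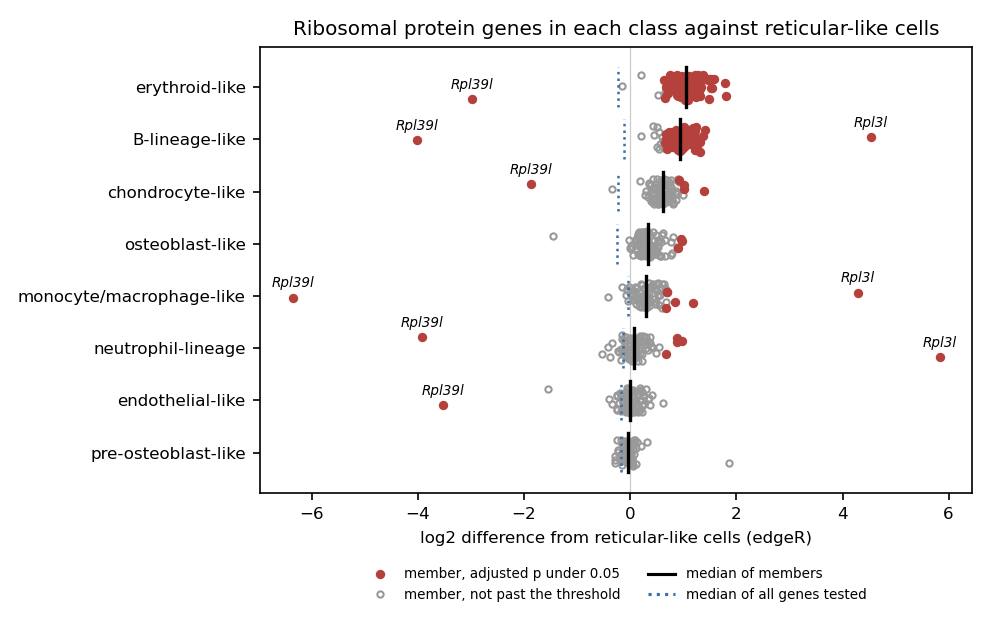
Log2 difference of each member between a class and reticular-like cells (x axis, edgeR fit with TMM), with filled points for members with an adjusted p under 0.05, the members' median as a bar and the median of all genes tested as a dotted line. Erythroid-like and B-lineage-like cells have 78 and 69 members higher, and Rpl39l is called lower in 6 classes; without TMM the erythroid count was 2. The positions of Rpl3l rest on near-empty reticular counts and are no measured fold. Those of Rpl39l in monocyte/macrophage-like and B-lineage-like cells rest on few or no UMIs in these classes.

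All hematopoietic against all mesenchymal cells of the same libraries gave 22 members higher (background 25.8%) and 1 lower (background 32.0%) of 82 tested, a share of higher members near the background. The median was 0.40 over the members and −0.09 over all genes. Library totals give another picture here too. The members' share in hematopoietic cells of replicate 1 was 12.8% (CONT) and 12.5% (ABL), below the 14.2% and 15.99% of mesenchymal cells. In replicate 2 the share was 11.1% and 19.9%, above the 6.79% and 14.2% of mesenchymal cells. The cells' median share was lower in hematopoietic than in mesenchymal cells of each library except ABL of replicate 2. Rps6, the protein phosphorylated by S6 kinase downstream of mTOR, had the highest difference, 0.79 (SE 0.16, edgeR adjusted p = 0.0084). It stood at 1819, 1668, 886 and 1495 CPM in hematopoietic cells and at 1426, 1614, 452 and 838 CPM in mesenchymal cells of CONT1, ABL1, CONT2 and ABL2, where the number is the replicate. Hematopoietic cells were thus above mesenchymal cells in each library, by little in ABL1. Rps27a (0.78, SE 0.17), Rps29 (0.72, SE 0.17), Rps25 (0.66, SE 0.16), Rpl4 (0.65, SE 0.15), Rpl7l1 (0.65, SE 0.19), Rps26 (0.63, SE 0.21), Rplp2 (0.61, SE 0.17), Rpl22 (0.58, SE 0.16), Rpsa (0.57, SE 0.18) and Rpl3 (0.48, SE 0.15) also passed. Rplp0 (0.58, adjusted p = 0.093), Rplp1 (0.19, adjusted p = 0.410), Rpl5 (0.33, adjusted p = 0.121) and Rpl11 (0.32, adjusted p = 0.151) did not pass in this edgeR test; Rpl5 and Rpl11 bind Mdm2 when ribosome assembly is disturbed. The number higher was 0 without TMM, 59 by DESeq2, 15 after subtraction of free RNA, and 0 without CONT1, 6 without ABL1, 3 without CONT2 and 30 without ABL2. Over all genes the number higher was 2180 without TMM, 3935 by DESeq2 and 3149 after subtraction of free RNA. It is not given for the omission of single libraries, so those member counts have no background.

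Rpl39l was lower in hematopoietic cells where 80 of 82 members tested lay above 0; Rpl22l1 was the other below 0. It is the autosomal paralog of X-linked Rpl39 (GRCm38, chr16:10170226-10174911, plus strand) and is best known from the testis, and none of the 50-base stretches at its 3′ end is shared with another gene. In reticular-like cells it stood at 64.1 CPM in CONT1, 87.1 in ABL1, 42.1 in CONT2 and 50.9 in ABL2, from 369, 232, 1015 and 80 UMIs. In hematopoietic cells it stood at 3.51, 3.34, 3.78 and 0.452 CPM, from 64, 23, 22 and 4 UMIs. In the sums over all mesenchymal cells it stood at 61.1, 74.2, 41.6 and 21.8 CPM, above the hematopoietic sum of each library. Single classes overlapped across libraries: B-lineage-like cells of CONT1 had 9.26 CPM and erythroid-like cells of CONT2 7.75 CPM, above the 7.44 CPM of chondrocyte-like cells of ABL2. Over all cells of the 2 kinds the log2 difference was −4.00 (SE 0.38, edgeR adjusted p = 0.000862), and it was called lower under every setting tried for this comparison. Droplets taken as empty held Rpl39l at 18.7, 37.9, 67.1 and 41.0 CPM, above the hematopoietic cells of each library. These droplets lay below the sums over all mesenchymal cells in replicate 1 and above them in replicate 2. They also lay above the reticular-like cells of CONT2, but below those of ABL2.

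Within the stroma Rpl39l was not even. Pre-osteoblast-like cells had 79.3 CPM in CONT1 and 81.8 in ABL1, and osteoblast-like cells 48.6 (5 UMIs) in CONT1, 53.5 in ABL1 and 46.1 in ABL2. Cycling mesenchymal cells of ABL2 had 73.7 CPM (95% exact Poisson interval 62.1 to 86.9), while the periosteal-like cells of the same library had 10.8 CPM (9.19 to 12.5) and the chondrocyte-like cells 7.44 CPM (3.845 to 12.998). Chondrocyte-like cells of ABL1 had 24.2 CPM from 6 UMIs. Endothelial-like cells had 6.72, 4.91 and 4.04 CPM in CONT1, CONT2 and ABL2, from 3, 2 and 4 UMIs. Intervals of reticular-like, pre-osteoblast-like, osteoblast-like and cycling cells overlapped within a replicate in part, and all lay above those of periosteal-like and endothelial-like cells of their library, except osteoblast-like and endothelial-like cells of CONT1, whose intervals met. Against reticular-like cells Rpl39l was lower in chondrocyte-like (−1.87, SE 0.55), endothelial-like (−3.53, SE 0.54), erythroid-like (−2.97, SE 0.40), neutrophil-lineage (−3.91, SE 0.41), B-lineage-like (−4.01, SE 0.51) and monocyte/macrophage-like cells (−6.36, SE 0.66). Monocyte/macrophage-like cells held 0, 2 and 1 UMIs of Rpl39l in CONT1, ABL1 and ABL2. B-lineage-like cells held 10, 2 and 0 in CONT1, ABL1 and CONT2. Neutrophil-lineage cells held 20, 11, 3 and 2 in CONT1, ABL1, CONT2 and ABL2. Folds against such near-empty counts give a direction, and their size is not measured. The chondrocyte difference did not pass without CONT1, ABL1 or ABL2, by DESeq2, or after subtraction of free RNA. Its abundant paralog Rpl39 did not share the pattern: it stood at 2245, 2431, 1117 and 2285 CPM in reticular-like cells and at 2202, 2058, 2038 and 3320 CPM in hematopoietic cells, a log2 difference of 0.39 between all hematopoietic and all mesenchymal cells (edgeR adjusted p = 0.159). Rpl39l made up 2.78%, 3.46%, 3.63% and 2.18% of the UMIs of the pair in reticular-like cells.

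**Figure D3:**
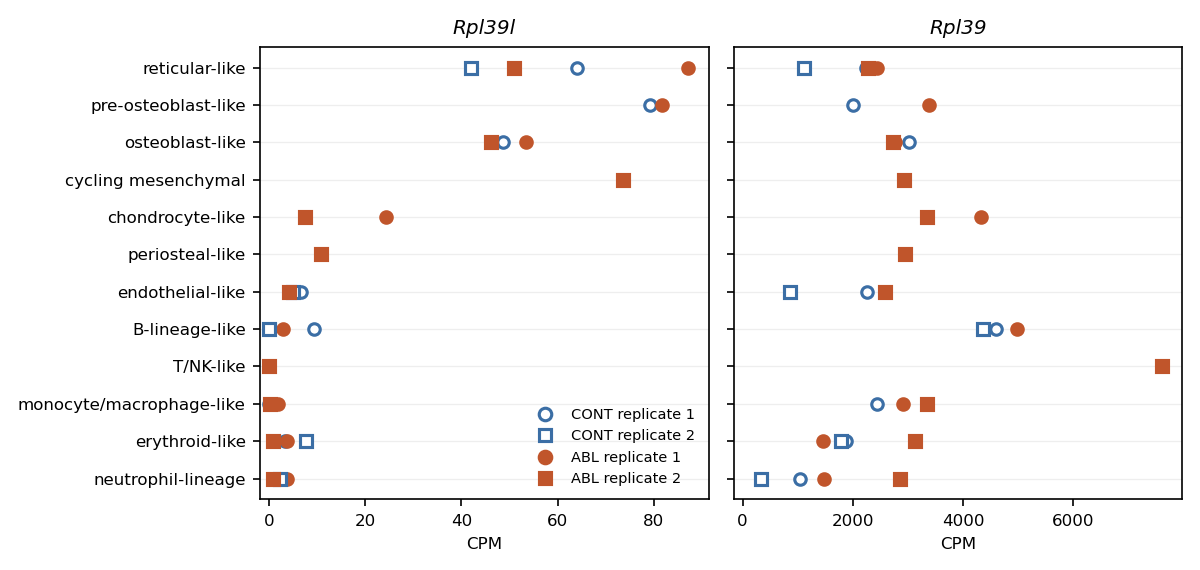
Levels of Rpl39l (left) and Rpl39 (right) in CPM (x axes, linear scales that differ) by cell class, with 1 point per library: CONT open, ABL filled, replicate 1 circles, replicate 2 squares. Rpl39l lies between 42.1 and 87.1 CPM in reticular-like cells and under 10 CPM in endothelial and hematopoietic classes, while Rpl39 reaches 7613 CPM in T/NK-like cells, where Rpl39l has no UMI.

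Rpl3l, the striated-muscle paralog of Rpl3, showed the opposite order at very low levels. It had 5, 0, 0 and 0 UMIs in reticular-like cells of CONT1, ABL1, CONT2 and ABL2. In neutrophil-lineage cells it had 72, 18, 15 and 5 UMIs, or 9.17, 6.23, 10.8 and 1.74 CPM, and in mature neutrophil-like cells of replicate 1 20.4 (CONT) and 17.6 CPM (ABL). B-lineage-like cells of replicate 1 had 8.33 and 10.2 CPM from 9 and 7 UMIs, and plasmacytoid/dendritic-like cells 19.7 CPM from 6 UMIs. Rpl3l passed as higher in neutrophil-lineage, B-lineage-like and monocyte/macrophage-like cells, but it entered the fit through the classes where it was found, and its fold against near-empty reticular counts has no meaning. Empty droplets of CONT1 held 5.49 CPM and those of CONT2 0.256 CPM. Its 3′ end shares no stretch of 50 bases with another gene. Rpl3 stood at 1311, 1264, 593 and 988 CPM in reticular-like cells.

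Rpl22l1, the paralog of Rpl22, was as abundant as its partner. It made up 66.1%, 61.0%, 49.8% and 41.0% of the UMIs of the pair in reticular-like cells of CONT1, ABL1, CONT2 and ABL2. In B-lineage-like cells it made up 50.04%, 49.5% and 27.4% (CONT1, ABL1, CONT2) and in monocyte/macrophage-like cells 51.7%, 43.7% and 27.1% (CONT1, ABL1, ABL2). The share was lower in B-lineage-like and monocyte/macrophage-like than in reticular-like cells of each library and lower in replicate 2 than in replicate 1 in each of these classes. Between hematopoietic and mesenchymal cells Rpl22 was higher (0.58, SE 0.16, edgeR adjusted p = 0.024) and Rpl22l1 was at −0.16 (adjusted p = 0.336). The difference between the paralogs was not tested, and 61.2% of the 50-base stretches of Rpl22l1 are shared with other genes.

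Rps27l made up 6.48%, 8.92%, 11.8% and 11.5% of the pair with Rps27 in reticular-like cells and 17.1%, 17.6%, 22.8% and 26.2% in erythroid-like cells. Cycling mesenchymal cells had 30.0% and T/NK-like cells 3.30%. Rps27 shares 58.5% of its 50-base stretches with Rps27rt, a copy whose counts differed between the replicates. Rpl7l1, a minor paralog of Rpl7, made up 1.97%, 3.79%, 5.004% and 3.02% of its pair in reticular-like cells and 6.10%, 6.34%, 7.53% and 4.004% in neutrophil-lineage cells. Rpl10l, an autosomal copy of Rpl10 known from the testis, had no UMI in any class.

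The comparison of femurs asks whether injury changes the members. In reticular-like cells of replicate 1 the members' share was 14.1% in CONT and 14.8% in ABL, a ratio of 1.05. In replicate 2 it was 6.82% and 12.2%, a ratio of 1.79. The mean was 10.4% ± 5.12 in CONT and 13.5% ± 1.82 in ABL (SD, n = 2). These SDs hold the difference between replicates, and with it that between chemistries, so the femurs are compared within each replicate. In all mesenchymal cells the ratio was 1.13 (14.2% and 15.99%) and 2.10 (6.79% and 14.2%). In hematopoietic cells it was 0.980 (12.8% and 12.5%) and 1.80 (11.1% and 19.9%), and in endothelial-like cells of replicate 2 it was 2.10 (7.45% and 15.7%). These endothelial-like sums rest on 25 cells of CONT and 115 of ABL. Free RNA was estimated at 2.80% of UMIs in CONT and 48.7% in ABL, and its part in the ratio was not tested. In the empty droplets of replicate 2 the share was 7.16% and 11.4%. The hematopoietic cells of replicate 2 differed in kind between femurs: ABL held 296 monocyte/macrophage-like and 44 T/NK-like cells, and no cell of CONT was named so. Over hematopoietic cells the cells' median shares were 4.43% (CONT) and 4.71% (ABL) for replicate 1, and 5.24% (CONT) and 16.2% (ABL) for replicate 2. The part of this makeup in the ratio was not tested. Exact permutation of 2 libraries against 2 cannot give a two-sided p under 0.333, and 2 pairs cannot go under 0.5, so shares were not tested.

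Values of single members followed the same split. Rplp1, a stalk protein, stood in reticular-like cells at 2026 CPM in CONT1, 2575 in ABL1, 1341 in CONT2 and 2746 in ABL2. Rpl28 stood at 1167, 1471, 980 and 2085 CPM and Rplp0 at 1908, 2157, 673 and 1464 CPM. Both ABL libraries lay above both CONT libraries for Rplp1 and Rpl28, as for 22 of 82 members tested (background 19.4%), and the conditions overlapped for Rplp0. No member had both ABL libraries below both CONT libraries (background 10.0%). Rpl23a, at the other end, stood at 2202, 2063, 574 and 654 CPM, Rpl22l1 at 1173, 939, 444 and 578 CPM and Rps27 at 4433, 3869, 1220 and 1954 CPM, each lower in ABL in replicate 1 and higher in replicate 2. The members' median log2 ratio of ABL over CONT, on TMM-scaled CPM with a pseudocount of 1, was −0.06 in replicate 1 and 0.80 in replicate 2 of reticular-like cells. It was 0.11 and 1.10 in all mesenchymal cells and −0.09 and 0.69 in hematopoietic cells. The ratio was larger in replicate 2 for 79 of 82, 79 of 82 and 80 of 83 members.

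**Figure D4:**
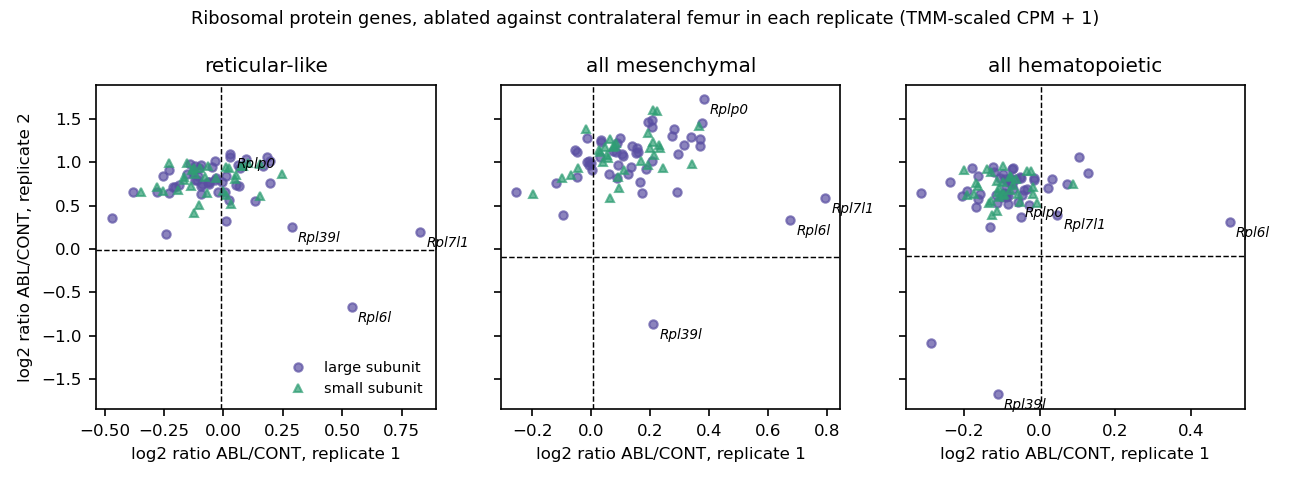
Log2 ratio of ABL over CONT of each member in replicate 1 (x axis) and replicate 2 (y axis), from TMM-scaled CPM plus 1, in reticular-like, all mesenchymal and all hematopoietic cells, with large-subunit members as circles and small-subunit members as triangles. Dashed lines give the median of all genes. Most members lie near 0 on the x axis and near 0.80, 1.10 and 0.69 on the y axis, and Rpl39l falls below 0 in replicate 2 of the mesenchymal and hematopoietic cells. Its hematopoietic ratio in replicate 2 rests on 22 UMIs in CONT and 4 in ABL. In reticular-like cells its ratio was 0.29 in replicate 1 and 0.25 in replicate 2.

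No member passed in the edgeR fit over both replicates with the replicate as a block. In reticular-like cells 0 of 82 members tested were higher or lower (background 3.3%, 374 of 11322 genes). None of the members had an unadjusted p under 0.05 (1278 over all genes). DESeq2 called no member (53 higher and 32 lower over all genes). The median log2 difference was 0.37 over the members and −0.00 over all genes, and 80 of 82 members lay above 0; the 2 below it, Rpl22l1 and Rpl23a, lay above 0 without TMM (0.028 and 0.047). The 5 highest were Rpl28 (0.63, SE 0.52), Rplp1 (0.60, SE 0.56), Rps26 (0.57, SE 0.50), Rpl23 (0.57, SE 0.54) and Rpl29 (0.57, SE 0.43), and the 5 lowest Rpl22l1 (−0.06, SE 0.47), Rpl23a (−0.04, SE 0.51), Rpl10 (0.14, SE 0.52), Rps25 (0.15, SE 0.48) and Rps27 (0.16, SE 0.58). The smallest adjusted p in this edgeR test was 0.518, for Rpl7l1 (0.53, SE 0.30), which stood at 24.3, 48.8, 33.8 and 39.5 CPM. Scaling shifted the median of all genes by over 0.1 in the setting that left members out of the totals (0.13), and the members' median relative to all genes was then 0.38, as with TMM. The sums rest on 1150, 360, 1810 and 186 reticular-like cells, with a median of 4489, 6516, 12847 and 7894.5 UMIs per cell.

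In all mesenchymal cells 0 of 82 members passed (background 0.0%, 0 of 13457 genes by edgeR with 1173 at an unadjusted p under 0.05, against 237 higher and 119 lower genes by DESeq2), and none of the members passed by DESeq2 or at an unadjusted p under 0.05. The median was 0.60 against −0.05 over all genes. Rplp0 (1.06, SE 0.87), Rplp1 (0.91, SE 0.91), Rps27l (0.91, SE 0.64), Rps2 (0.91, SE 0.87) and Rps26 (0.89, SE 0.78) were highest, and Rpl39l (−0.35, SE 0.45), Rpl23a (0.15, SE 0.76), Rpl22l1 (0.20, SE 0.70), Rps27 (0.22, SE 0.91) and Rpl9 (0.32, SE 0.81) lowest. This comparison sets mostly reticular-like CONT2 cells against mostly periosteal-like ABL2 cells. In hematopoietic cells 0 of 83 members passed (background 1.96%, 233 of 11870 genes). None of the members had an unadjusted p under 0.05 (1319 over all genes). DESeq2 called no member (132 higher and 34 lower over all genes). The median was 0.31 against −0.04 over all genes. Rplp1 (0.58, SE 0.52), Rpl29 (0.51, SE 0.47), Rpl6l (0.45, SE 0.46), Rps2 (0.44, SE 0.52) and Rps27l (0.44, SE 0.47) were highest and Rpl39l (−1.35, SE 0.73), Rpl3l (−0.93, SE 0.59), Rpl23a (0.06, SE 0.49), Rps27 (0.13, SE 0.51) and Rpl31 (0.16, SE 0.48) lowest. Few UMIs lie behind some of these. Rpl39l had 64, 23, 22 and 4 UMIs in hematopoietic cells of CONT1, ABL1, CONT2 and ABL2, and Rpl3l had 99, 31, 20 and 10. Rpl6l had 22 and 48 UMIs in CONT2 and ABL2. The 3 comparisons share their libraries and the first 2 share cells, so their likeness is not independent.

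Whether the femur difference differed between hematopoietic and mesenchymal cells was tested as an interaction. It was negative in all 83 members, with a median of −0.27 against −0.01 over all genes. No member passed (background 0.0%, 0 of 13521 genes by edgeR with 975 at an unadjusted p under 0.05, against 29 higher and 25 lower by DESeq2), none had an unadjusted p under 0.05 and none was called by DESeq2. Rplp0 was nearest to the threshold (−0.81, SE 0.35, edgeR adjusted p = 0.694).

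Beside these shares moved other measures of the libraries, whose part in them was not tested. Late erythroid markers, all 8 of them found, summed to 13890, 8837, 282 and 2332 CPM in reticular-like cells of CONT1, ABL1, CONT2 and ABL2, and to 178300, 193700, 113200 and 24580 CPM in hematopoietic cells. Periosteal markers summed to 1411, 1269, 1397 and 5292 CPM in reticular-like cells. The 20 genes induced by tissue dissociation, such as Fos and the Hsp70 genes, made up 1.84%, 1.30%, 2.08% and 1.39% of UMIs in reticular-like cells, lower in ABL in both replicates.

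The X-linked members gave no separate pattern. Rps4x stood in reticular-like cells at 1836, 1859, 809 and 1550 CPM, Rpl36a at 1097, 1225, 478 and 869 CPM, and Rpl10 at 2164, 1842, 764 and 1219 CPM. Their log2 differences between femurs, 0.39 for Rps4x, 0.43 for Rpl36a, 0.14 for Rpl10 and 0.49 for Rpl39, lay within the range of the autosomal members. The libraries differed in sex-linked RNA: Xist stood at 587, 880, 811 and 0 CPM and the Y-linked Ddx3y at 52.9, 9.91, 36.7 and 61.8 CPM in mesenchymal cells, so sex composition and condition cannot be told apart in replicate 2.

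Genes around ribosome production were taken from 5 further lists. As background, edgeR called 224 of all 11322 genes tested higher and 150 lower between femurs in reticular-like cells. In reticular-like cells between femurs, 20 other TOP and translation factor genes had 0 higher and 0 lower with a median of 0.24, 26 ribosome biogenesis genes 0 and 0 with a median of −0.05, and 77 mitochondrial ribosomal protein genes 0 and 0 with a median of 0.29. Among 16 genes of the mTOR and TOP regulator list 1 was lower: Ddit4, a stress-induced inhibitor of mTOR complex 1 (−1.30, SE 0.33, edgeR adjusted p = 0.00394). Among 20 dissociation genes 0 were higher and 3 lower, with a median of −0.70; Hspa1b (−1.77, SE 0.34) and Hspa1a (−1.35, SE 0.38), which encode inducible chaperones, were the lowest. In all mesenchymal and in hematopoietic cells no gene of these lists passed, with medians of 0.42 and 0.21 for other TOP genes, 0.06 and 0.38 for biogenesis genes, −0.27 and 0.08 for regulators, −1.07 and −0.37 for dissociation genes and 0.42 and 0.34 for mitochondrial ribosomal proteins. The background there was 0 of 13457 and 233 of 11870 genes.

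Between hematopoietic and mesenchymal cells 35 mitochondrial ribosomal protein genes were higher and 2 lower, led by Mrpl45 (1.39, SE 0.20) and Mrpl18 (1.28, SE 0.14), and Mrps6 was the lowest (−2.05, SE 0.57). Of the biogenesis genes 10 were higher and 1 lower: Nhp2, a protein of the pseudouridylation complex (1.40, SE 0.14), and Wdr12 (1.27, SE 0.21) led, and Myc, which drives ribosome production, was lower (−2.41, SE 0.28). Other TOP genes had 6 higher and 1 lower, with Pabpc1, the poly(A)-binding protein (1.29, SE 0.14), and Nap1l1 (0.99, SE 0.15) highest and Eif4a2 (−0.95, SE 0.18) lower. Regulators had 1 higher, Eif4ebp1 (0.58, SE 0.17), and 4 lower, among them Ddit4 (−2.60, SE 0.24) and Akt1s1 (−1.20, SE 0.16), and dissociation genes had 0 higher and 16 lower. The background for these counts is again 25.8% higher and 32.0% lower.

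Rpl6l was the member that differed most between replicates. It stood in reticular-like cells at 284 CPM in CONT1 and 458 in ABL1, but at 2.57 in CONT2 and 1.27 in ABL2, the last from 2 UMIs. Its parent Rpl6, which makes a large-subunit protein, stood at 1641, 1792, 817 and 1307 CPM. Features named as ribosomal protein pseudogenes, which the rule left out, showed the same split between replicates.

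**Figure D5:**
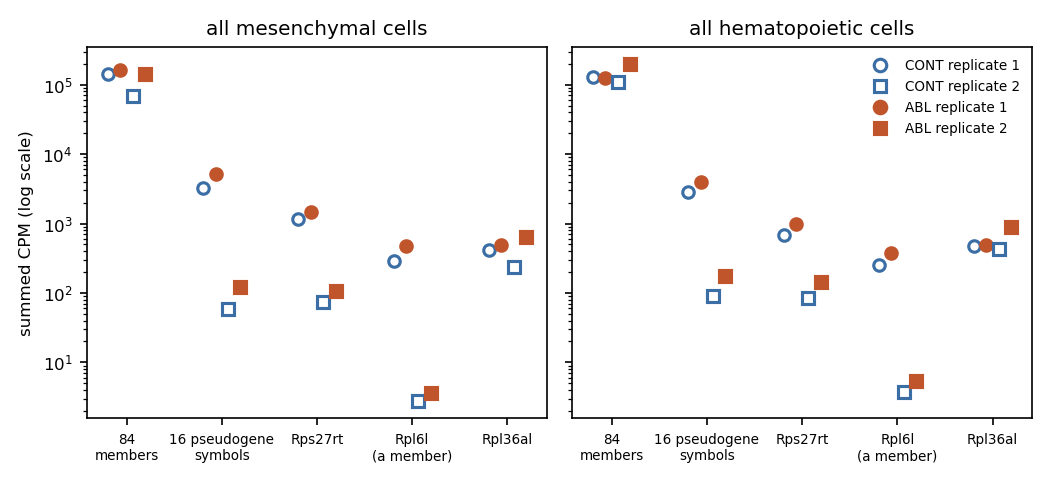
Summed CPM (y axis, log scale) of the 84 members, 16 pseudogene symbols, Rps27rt, Rpl6l and Rpl36al in all mesenchymal (left) and all hematopoietic cells (right), with 1 point per library: CONT open, ABL filled, replicate 1 circles, replicate 2 squares. Pseudogene symbols, Rps27rt and Rpl6l lie lower in both libraries of replicate 2 than in those of replicate 1, whereas members and Rpl36al do not.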

How the data were processed

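The authors deposited raw UMI counts per gene and barcode for 4 libraries, made with Cell Ranger (3.0.0 in the headers of replicate 2) on mm10 with added transgene features; the other version is not given in the sources used here. All barcodes were deposited, so cells were called again, by the study's own limits (a minimum of 500 genes with up to 20% mitochondrial UMIs in version 2 libraries, or 1000 genes with up to 15% in version 3 libraries) and by an added UMI minimum of 0.1 times percentile 99 among the 3000 deepest barcodes. Scrublet called 0.0832% to 2.10% of cells as doublets, which were kept in the main result. Cells were clustered in Seurat 5.3.0 (2000 variable genes, 30 components, 20 neighbours, resolution 0.8) without the members, the other lists and their copies. Clusters were named from 167 marker genes, by scoring rules set after the data were seen (score at least 0.25, margin 0.1). Classes with at least 10 cells in a library were summed per library.

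Sums were tested with edgeR 4.0.16 (quasi-likelihood, TMM, Benjamini-Hochberg threshold 0.05; R 4.3.3), with the replicate or library as a block, and the script was tested on simulated data. DESeq2 1.42.0, other scalings, filters, clusterings and the omission of each library were alternatives. The study describes same-numbered libraries as operated and opposite femurs of the same mice. Sex-linked RNA goes against that in replicate 2 (Xist 811 CPM in CONT, 0 in ABL, mesenchymal cells) and leaves doubt in replicate 1 (Ddx3y 52.9 and 9.91 CPM), so the pairing is uncertain. Deviations of same-numbered libraries correlated at 0.618 in reticular-like, 0.222 in mesenchymal and 0.536 in hematopoietic cells over 8128, 8191 and 7336 genes. Same-numbered libraries also share a chemistry, which enters these deviations, so the correlations cannot tell whether femurs came from the same mice. The members and lists were chosen with earlier results of these data known. Genes named were the paralog pairs, stalk and X-linked members, the 5 most abundant, the 5 highest and lowest between femurs, and the 2 highest and lowest that passed elsewhere. Other genes, such as Rpl6 and the further examples for single classes, were chosen after their values were seen. Protein sequences were not used here. Some items are not reported here.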

Additional observations from a re-analysis of the deposited data

Results flagged for a closer look

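Features that the rule left out but whose names or sequences are near those of members carried signal in every library. The 16 pseudogene symbols summed to 3289 CPM in CONT1, 5186 in ABL1, 58.86 in CONT2 and 120.2 in ABL2 among mesenchymal cells, and to 2840, 3927, 91.74 and 173.8 CPM among hematopoietic cells. Rps27rt, a copy of Rps27, stood at 1168, 1488, 73.03 and 106.2 CPM in mesenchymal and at 687.9, 986.5, 84.53 and 142.3 CPM in hematopoietic cells. Both were lower in each library of replicate 2 than in each library of replicate 1. Rpl36al, a paralog of Rpl36a, stood at 408.6, 485.8, 233.4 and 649.7 CPM in mesenchymal and at 471.5, 484.9, 432.1 and 878.6 CPM in hematopoietic cells, without such a split. Replicate and chemistry cannot be told apart.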

How the results depend on the processing

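No member passed between femurs under any setting tried. Over all genes, calls without TMM were 203 higher and 67 lower in reticular-like, 48 and 7 in mesenchymal and 284 and 87 in hematopoietic cells. By DESeq2 they were 53 and 32, 237 and 119, and 132 and 34 in the same order. Counts over all genes are not given for other filters, other clusterings or the fit without the replicate block. The members have no background there. Without the replicate block the members' median was 0.29 in reticular-like, 0.52 in mesenchymal and 0.28 in hematopoietic cells, with 0 members called, and Rpl10 (−0.029) and Rps27 (−0.059) in reticular-like and Rpl23a (−0.016) in hematopoietic cells changed sign. In reticular-like cells Rpl22l1 also changed sign without TMM (0.028), scaled on non-member genes (0.078), with a stricter filter (0.067), at resolution 0.4 (0.15) and with members kept in clustering (0.021), as did Rpl23a under these settings (0.047, 0.096, 0.067, 0.095 and 0.034), with doublets removed (0.015) and at resolution 1.5 (0.019). Without integration Rpl10 (−0.20) and Rps25 (−0.055) did so, Rpl39l in mesenchymal cells with the study's filter (0.0098) and Rpl23a in hematopoietic cells with free RNA subtracted (−0.051). The causes were not tested.

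Members higher numbered 0 without TMM and 0 scaled on non-member genes in hematopoietic against mesenchymal, chondrocyte-like and osteoblast-like cells, 2 and 2 in erythroid-like, 2 and 2 in monocyte/macrophage-like, and 1 and 1 in neutrophil-lineage cells, where 24 and 21 were lower. Over all genes 2180 and 2093 were higher in hematopoietic, 588 and 581 in chondrocyte-like and 465 and 439 in osteoblast-like cells. The numbers were 1423 and 1411 in erythroid-like, 1980 and 1999 in monocyte/macrophage-like and 1785 and 1685 in neutrophil-lineage cells. In neutrophil-lineage cells 6304 and 6332 of all genes were lower. The members' median under these scalings was 0.21 and 0.26 in erythroid-like and 0.29 and 0.34 in pre-osteoblast-like cells. DESeq2 gave 59 higher in hematopoietic, 49 in chondrocyte-like (0 lower), 1 in endothelial-like, 19 in monocyte/macrophage-like, 13 in neutrophil-lineage and 24 in osteoblast-like cells. Over all genes DESeq2 gave 3935, 1173, 1658, 2565, 3628 and 977 higher in the same order. Subtraction of free RNA, chosen for these fits after the data were seen, gave 42 higher in B-lineage-like, 0 in chondrocyte-like (0 lower), 3 in monocyte/macrophage-like and 0 in osteoblast-like cells. Over all genes it gave 2405, 675, 1992 and 592 higher in the same order. Leaving out the 3 clusters whose leading genes go beyond their class name, also chosen then, gave 17 higher in hematopoietic, 65 in B-lineage-like and 4 in monocyte/macrophage-like cells, whose median fell from 0.31 to 0.18. Counts over all genes are not given for this omission, so its member counts have no background. Shares taken as the median over cells of each library and then averaged over libraries were 4.83% and 10.4% in hematopoietic cells of CONT and ABL. By library these medians were 4.43% and 4.71% in replicate 1 and 5.24% and 16.2% in replicate 2, in the same order. The averaged medians were 6.07% in erythroid-like cells (1.29% to 16.5% by library), 3.05% in neutrophil-lineage and 12.8% in osteoblast-like cells.

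Leaving out 1 library gave 0 to 30 higher in hematopoietic cells, 39 to 66 in B-lineage-like, 0 to 41 in chondrocyte-like (0 to 1 lower), 0 to 1 in endothelial-like (1 without CONT2), 2 to 17 in monocyte/macrophage-like, 3 to 22 in neutrophil-lineage (1 to 3 lower, 3 without ABL2) and 0 to 17 in osteoblast-like cells. Counts over all genes are not given for these refits, so the member counts have no background. The median in pre-osteoblast-like cells ranged from −0.24 to 0.23 (the latter without CONT1). When a whole replicate was left out instead, the mean share in osteoblast-like cells was 13.8% without replicate 1 and 15.5% without replicate 2.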
